A study of Mus musculus with 4 samples.

Results

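The genes *Areg*, *Ereg*, *Epgn*, *Btc*, *Hbegf*, *Tgfa*, *Egf* and *Nrg1* encode ligands of the EGF receptor family, and their chromatin was compared between small cell lung cancer cells of a pair of phenotypes. The 8 genes were chosen by name from 21938 annotated protein-coding genes (GENCODE M21), and every peak in a gene body or in the 50 kb on either side of it (the window of the gene) was taken. The assay for transposase-accessible chromatin (ATAC-seq), which marks open chromatin by where a transposase inserts into DNA, was performed on 1 library from each of 2 SMC lines (SMC1 and SMC2) and 2 non-SMC lines (NonSMC1 and NonSMC2). All 4 lines were untreated, were grown in RPMI1640 with 10% FBS and came from lung tumors of mice with the alleles *Rb1*L/L and *Trp53*L/L on a mixed C57Bl/6, Balb-c and S129 background, in which adenoviral Cre removes both tumor suppressors. SMC lines were sorted as NCAM-high, CD44-low cells and grew in suspension, whereas non-SMC lines were sorted as NCAM-low, CD44-high cells and grew attached. Each type is thus known from 2 lines only, and a list of peaks from a whole culture cannot tell fewer open cells from less open chromatin in each cell. The windows held 75 peaks in SMC1, 127 in SMC2, 130 in NonSMC1 and 139 in NonSMC2, which are 471 of the 489558 peaks in all. Merged where they overlapped by at least 1 base, they made 340 of the 357570 regions of the genome.

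EGF family ligands are made as membrane-bound precursors, are released by metalloproteases, and activate receptor tyrosine kinases on the same or on neighbouring cells. AREG, EPGN, EGF and TGFA bind EGFR, whereas BTC, HBEGF and EREG bind both EGFR and ERBB4, and NRG1 acts through ERBB3 and ERBB4. In lung epithelium these ligands are known for growth and repair after injury, and NRG1 also for the development of nerve and heart.

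The sequences that carry the differences described below were read from the GRCm38 assembly of mm10, forward strand, at 200 bp around the summit of the highest peak of the region. The first 4 had a peak in NonSMC1 and NonSMC2 but in no SMC line (non-SMC-only), and the last 3 had the opposite pattern (SMC-only). They are shown because they rank first or second in their pattern at a ligand gene, by the mean percentile of fold enrichment (the rank of a peak's enrichment over background within its own list), and were picked from those after their values were seen. Capitals mark matches, on either strand, to the strings used for AP-1 (TGACTCA, whose reverse complement is TGAGTCA), TEAD (GGAATG), RUNX (TGTGGT or TGCGGT), SOX (ACAAAG or ACAATG) and the E-box (CAGCTG). None of these strings lies inside another. The *Ereg* sequence held AP-1 at 2 places and TEAD at 1, and the sequence between *Ereg* and *Areg* held RUNX, AP-1 and SOX. The *Btc* sequence held AP-1, the non-SMC-only sequence of *Nrg1* held TEAD, and the SMC-only one of *Nrg1* held SOX at 3 places. The SMC-only sequence of *Tgfa* opens with a simple repeat and held SOX at 1 place, and that of the *Egf* promoter held none of the strings.
Ereg intron, chr5:91083123-91083322: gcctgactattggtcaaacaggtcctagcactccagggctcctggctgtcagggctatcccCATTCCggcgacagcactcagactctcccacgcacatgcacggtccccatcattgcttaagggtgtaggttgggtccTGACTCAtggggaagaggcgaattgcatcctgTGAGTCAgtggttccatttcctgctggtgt
between Ereg and Areg, chr5:91101717-91101916: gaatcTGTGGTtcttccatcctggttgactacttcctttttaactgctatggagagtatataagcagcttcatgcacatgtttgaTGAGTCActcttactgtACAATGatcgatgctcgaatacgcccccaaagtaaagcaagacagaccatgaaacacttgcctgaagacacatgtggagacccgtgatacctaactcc
Btc intron, chr5:91375548-91375747: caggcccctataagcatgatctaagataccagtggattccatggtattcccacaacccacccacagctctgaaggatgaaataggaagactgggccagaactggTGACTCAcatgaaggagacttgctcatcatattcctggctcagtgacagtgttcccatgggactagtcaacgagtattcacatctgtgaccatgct
Nrg1 intron at 684 kb, chr8:32199915-32200114: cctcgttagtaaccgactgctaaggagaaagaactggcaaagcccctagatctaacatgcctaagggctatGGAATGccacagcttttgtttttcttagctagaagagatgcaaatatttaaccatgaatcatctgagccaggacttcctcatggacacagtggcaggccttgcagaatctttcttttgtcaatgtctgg
Nrg1 intron at 299 kb, chr8:32585123-32585322: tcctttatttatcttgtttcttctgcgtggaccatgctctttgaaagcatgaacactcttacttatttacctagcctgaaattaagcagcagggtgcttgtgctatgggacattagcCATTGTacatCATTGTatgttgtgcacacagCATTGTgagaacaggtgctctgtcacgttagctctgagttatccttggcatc
Tgfa intron, chr6:86222424-86222623: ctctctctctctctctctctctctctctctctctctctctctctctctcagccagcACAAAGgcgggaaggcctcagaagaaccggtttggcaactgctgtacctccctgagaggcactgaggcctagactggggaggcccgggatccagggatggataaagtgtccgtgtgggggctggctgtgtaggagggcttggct
Egf promoter, chr3:129755333-129755532: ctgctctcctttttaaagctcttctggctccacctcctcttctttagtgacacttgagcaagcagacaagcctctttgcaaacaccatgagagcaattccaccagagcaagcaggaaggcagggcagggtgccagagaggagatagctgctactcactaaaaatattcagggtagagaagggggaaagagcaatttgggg

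Across the 8 genes, open regions found in both lines of a type and in neither line of the other were more often non-SMC-only than SMC-only. The whole genome had the same order, with 26224 non-SMC-only and 15618 SMC-only regions. Of the 340 regions, 36 (10.6%) were non-SMC-only, where 7.33% of all regions of the genome were. SMC-only regions numbered 18 (5.29%), where the genome had 4.37%, and 11 (3.24%) had a peak in all 4 lines, where the genome had 3.81%. The rest were 22 regions with peaks in a mixture of lines and 253 with a peak in 1 library only. The ligand genes on chromosome 5 carried no SMC-only region. Windows with at least 1 non-SMC-only and no SMC-only region numbered 4 of 8 (*Areg*, *Ereg*, *Epgn* and *Btc*), where 25.7% of all protein-coding genes have such a window. More non-SMC-only than SMC-only regions were found at 6 of 8, with *Hbegf* and *Nrg1* added, where 48.1% of all genes do. In both counts *Areg*, *Ereg* and *Epgn* have overlapping windows that share regions, so these genes are not separate observations. *Tgfa* and *Egf* had more SMC-only regions. The order of the totals turned when an SMC line was left out, so that a peak in the remaining SMC line sufficed. Then 40 regions were non-SMC-only and 100 SMC-only without SMC1, and 43 and 54 without SMC2. No genome share was set beside these counts.

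**Figure D1:**
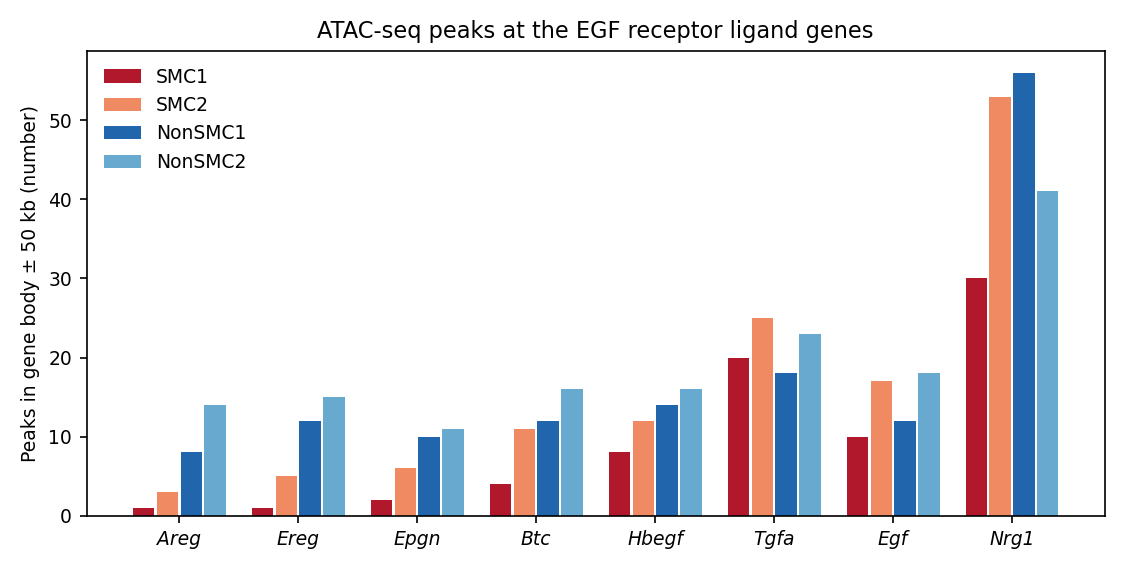
Number of ATAC-seq peaks (vertical axis) in the window of each ligand gene, as 1 bar per library: SMC lines in reds, non-SMC lines in blues. Both SMC bars lie below both non-SMC bars at *Areg*, *Ereg*, *Epgn*, *Btc* and *Hbegf*, and the bars of the types overlap at *Tgfa*, *Egf* and *Nrg1*.

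Numbers of peaks alone separated the types at part of the genes, as the plot of peaks by gene shows. Over all windows the mean was 101 ± 36.8 peaks in SMC and 134 ± 6.36 in non-SMC (SD, n = 2 each). The log2 ratio of SMC over non-SMC was -0.41, beside an SD between lines of the same type of 0.38, and with 2 lines a type the smallest two-sided exact permutation p is 0.333, so no test was made between the types. The ratio was -0.79 between lines numbered 1 and -0.13 between lines numbered 2. At 5 of 8 genes both SMC lines had fewer peaks than either non-SMC line, where 14.9% of all genes do. Of these 5, *Areg*, *Ereg* and *Epgn* have overlapping windows and are not separate observations. Relative to the shallowest library, SMC1, the background level was 3.37 in SMC2, 3.26 in NonSMC1 and 1.4 in NonSMC2, so numbers of peaks also carry depth. With the pileups scaled to the level of SMC1, the windows kept 75 and 63 peaks in SMC1 and SMC2, and 83 and 112 in NonSMC1 and NonSMC2. The whole lists then kept 91057 and 58844 peaks in SMC1 and SMC2, and 64818 and 102152 in NonSMC1 and NonSMC2. SMC2 and NonSMC2 thus differed over the genome as well. In the windows both SMC lines stayed below both non-SMC lines, and the part of depth in this was not tested.

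The labels were checked with promoters, the 6 kb centred on the 5′ end of a gene. *Chga*, which marks neuroendocrine cells, had promoter peaks in SMC1 and SMC2 but in no non-SMC line. Those of *Cd44*, *Wwtr1* (which encodes TAZ) and *Vim* reached a -log10 q of at least 5 in NonSMC1 and NonSMC2 but in no SMC line. With every listed peak counted, as for the other markers, *Cd44* and *Wwtr1* also had promoter peaks in SMC2, and *Vim* in all 4 lines. Of the other markers listed for SMC, *Ncam1* and *Sox11* were open in all 4 lines and *Insm1* and *Neurod1* in 3. *Insm1* lacked a promoter peak in NonSMC2. *Neurod1* lacked one in SMC1 and had one in both non-SMC lines, which goes against its listing. Of those listed for non-SMC, *Ccn2* was open in all 4, and *Axl* and *Ccn1* in all but SMC1.

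*Ereg*, which encodes epiregulin, had the densest non-SMC-only regions of the ligand genes (GRCm38 chr5:91074622-91093646, forward strand). Its window held 1 and 5 peaks in SMC1 and SMC2, and 12 and 15 in NonSMC1 and NonSMC2. All 8 of its regions with a type-specific pattern were non-SMC-only, and 8 were non-SMC-only and 4 SMC-only without SMC1. This is a density of 6.72 non-SMC-only regions per 100 kb, above that of 99.5% of all protein-coding genes, whose median was 0.942. The window overlaps those of *Epgn* and *Areg*, and without the flanks 2 non-SMC-only regions remained. No peak of either SMC line lay in the gene body.

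The highest of these regions lay in an intron of *Ereg*, 8.6 kb from the start site (chr5:91083084-91083531). In each list a peak was ranked by its fold enrichment, which sets the pileup against the background around it, and given as a percentile of that list. The fold enrichment was 13.3 in NonSMC1 (percentile 96.4) and 11.2 in NonSMC2 (percentile 97.3), with -log10 q of 38.6 and 19.5. This is the region with AP-1 strings at 2 places and the TEAD string shown above. A further region between *Ereg* and *Areg*, 27.2 kb from the start of *Ereg* (chr5:91101519-91102080), had fold enrichments of 14.3 and 6.22 in NonSMC1 and NonSMC2. Both regions were absent from both SMC lists.

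The start site of *Ereg* was covered by a peak of 838 bp in NonSMC1 and of 933 bp in NonSMC2, and by none in SMC. Their fold enrichments were 6.87 and 7.36, at percentiles 78.7 and 89.6. A smaller peak, 2210 bp upstream in NonSMC1 and 2205 bp in NonSMC2, repeated the pattern, with fold enrichments of 5.7 and 7.49. Among the 8 ligand promoters, that of *Ereg* alone had peaks in NonSMC1 and NonSMC2 but in no SMC line, a pattern of 2.45% of all promoters. It held the same pattern when only peaks whose -log10 q was 5 or more were kept, where 5.3% of all promoters had it. The pileups of 29 and 21 at the non-SMC summits come to a mean of 12 when scaled to SMC1 and 40.3 when scaled to SMC2, whereas pileups of 3 and 5 at the background level suffice to enter these lists.

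**Figure D2:**
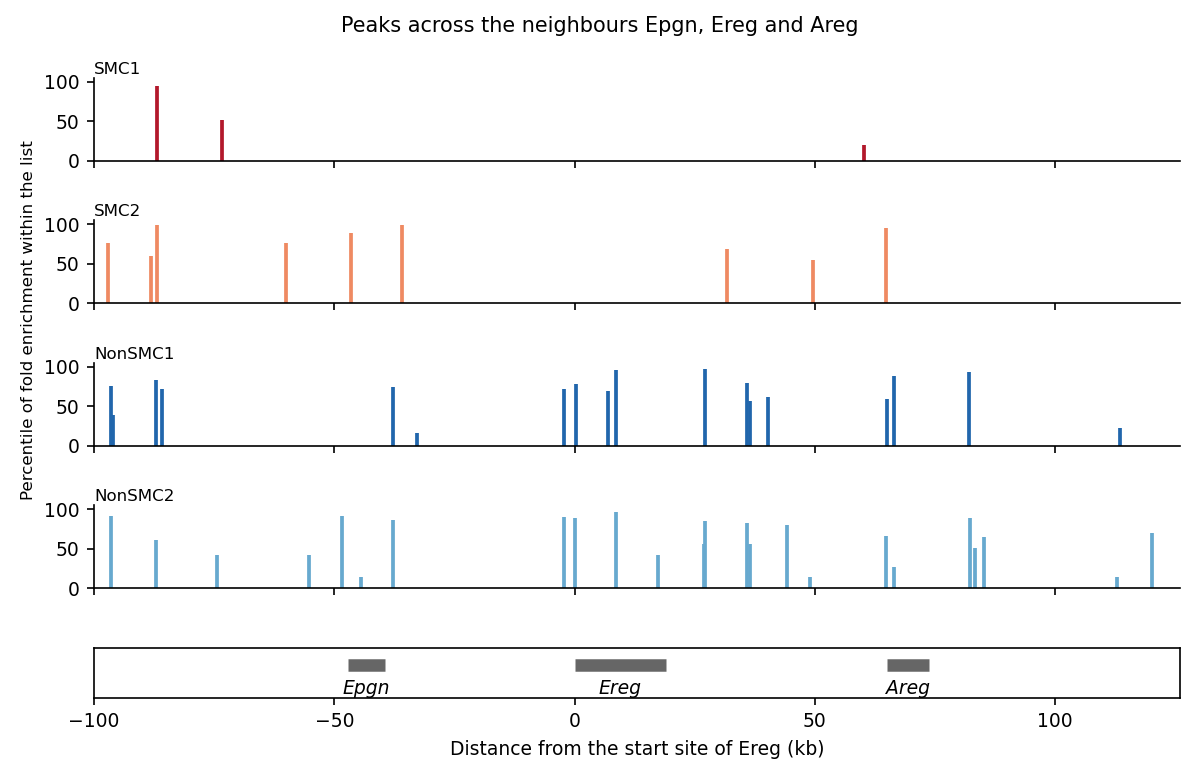
Peaks of each library across *Epgn*, *Ereg* and *Areg*, by the distance of the summit from the start site of *Ereg* (kb) and the percentile of the fold enrichment within its own list (height). SMC lines have no peak between the flank of *Epgn* and a point beyond the 3′ end of *Ereg*, where both non-SMC lines have peaks at the start site and in the gene body of *Ereg*.

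*Areg*, *Ereg* and *Epgn* are neighbours, so their windows overlap and share regions, and they were also taken as 1 span of 221 kb (chr5:90977464-91198432). The span held 3 and 9 peaks in SMC1 and SMC2, and 18 and 25 in NonSMC1 and NonSMC2. Of its 40 regions, 10 (25%) were non-SMC-only and 0 were SMC-only, while 1 was found in all 4 lines. Restricted to a -log10 q of at least 5, the peaks numbered 1 and 4 in SMC and 14 and 9 in non-SMC. The map of the span shows the gap in the SMC lists from beyond *Epgn* to beyond *Ereg*. By the Jaccard index (bases covered by both lists over bases covered by either) the non-SMC lines shared 0.398 and the SMC lines 0.15 of their covered bases here, and lines with the same number shared 0.0486 and 0.0857.

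*Areg*, which encodes amphiregulin (chr5:91139599-91148432, forward strand), differed in its surroundings more than at its start. Its window held 1 and 3 peaks in SMC1 and SMC2, and 8 and 14 in NonSMC1 and NonSMC2, with 5 non-SMC-only and 0 SMC-only regions, or 5 and 2 without SMC1. The start site itself was covered in SMC2, with a fold enrichment of 8.32 (percentile 95.4), as well as in NonSMC1 (4.28, percentile 58.9) and NonSMC2 (3.98, percentile 66.7). The promoter of *Areg* was therefore not a difference between the types: SMC1 alone lacked a peak. Downstream, an intergenic region 17.3 kb from the start (chr5:91156612-91157387) was non-SMC-only, with fold enrichments of 11.3 and 7.17. A region over an exon, 1461 bp from the start in NonSMC1, reached 9.27 there and 2.85 in NonSMC2, the weaker at percentile 27.

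*Epgn*, which encodes epigen (chr5:91027464-91035215, forward strand), had 2 and 6 peaks in SMC1 and SMC2, and 10 and 11 in NonSMC1 and NonSMC2. Its window had 0 SMC-only regions, or 5 without SMC1, and its 5 non-SMC-only regions include those at the start and in the intron of *Ereg*, which its window reaches. Of the non-SMC-only regions nearest to *Epgn* itself, 1 lay beyond its 3′ end (chr5:91036577-91037269), with fold enrichments of 6.13 and 6.68 in NonSMC1 and NonSMC2. Further on, SMC2 alone had a peak (chr5:91038675-91039302) with a higher fold enrichment of 11.2 (percentile 98.4). That peak was picked after its values were seen. The promoter had a peak 566 bp inside the gene in SMC2 and peaks 1173 bp upstream and 2722 bp downstream in NonSMC2, and none in the other lines. A region inside the neighbouring *Mthfd2l*, 39.8 kb upstream, was open in all 4 lines, with fold enrichments of 7.99, 11.9, 8.06 and 3.66 in the order SMC1, SMC2, NonSMC1, NonSMC2.

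*Btc*, which encodes betacellulin, lies on the same chromosome on the reverse strand (chr5:91357261-91402994). Its promoter was open in all 4 lines, with top fold enrichments of 3.36, 8.22, 7.12 and 6.18 in the same order. Away from the promoter the pattern leaned to non-SMC, with 3 non-SMC-only and 0 SMC-only regions. An intronic region 27.3 kb from the start (chr5:91375526-91375962) had a fold enrichment of 15.9 in NonSMC1 (percentile 98.7) and 7.21 in NonSMC2 (percentile 88.8). Its summit lay 1373 bp downstream of the start of a transcript that begins within the gene. A region 91.1 kb from the start, beyond the 3′ end, had 9.56 and 9.68. The window held 4 and 11 peaks in SMC1 and SMC2, and 12 and 16 in NonSMC1 and NonSMC2, so that SMC2 came within 1 peak of NonSMC1. Without SMC1 the order turned, to 4 non-SMC-only and 9 SMC-only regions.

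**Figure D3:**
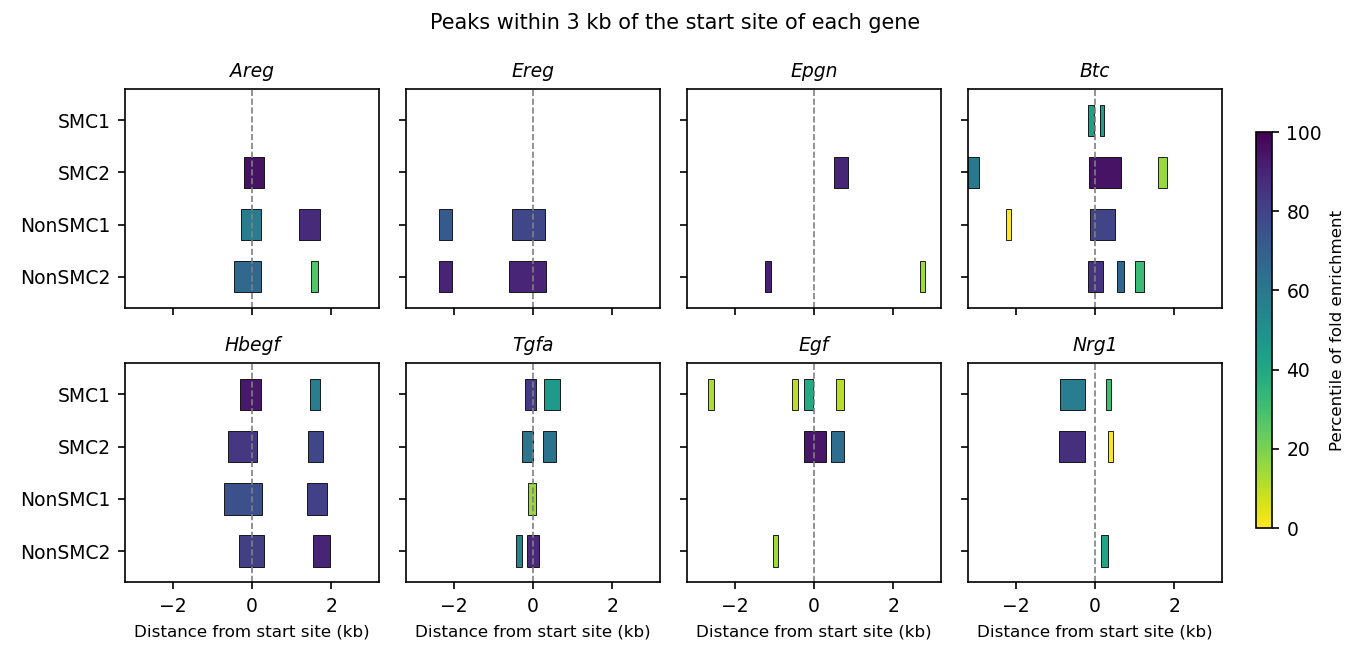
Peaks within 3 kb of the start site of each ligand gene (horizontal axis, kb, in the direction of transcription), with 1 row per library and colour for the percentile of fold enrichment within the list. At *Ereg* only the non-SMC rows hold peaks, at *Hbegf* all rows hold the same pair of peaks, and at *Egf* the peak at the start is in the SMC rows.

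*Hbegf*, which encodes heparin-binding EGF (chr18:36504927-36515805, reverse strand), was the ligand gene whose lists were most alike. Its promoter was open in all 4 lines, as those of *Btc* and *Tgfa* were, and 48.7% of all promoters share this pattern. Each line had a peak over the start site and another inside the gene, with the start site at fold enrichments of 7.56, 4.83, 6.33 and 5.52 in the order SMC1, SMC2, NonSMC1, NonSMC2. The Jaccard index between lines with the same number was 0.34 and 0.255 here, beside 0.0934 and 0.096 over the 8 windows together. Part of the shared bases lay in the neighbouring gene *Ankhd1*, in a region open in all 4 lines, and not at *Hbegf* itself. Regions of a single type numbered 3 for non-SMC and 1 for SMC, or 5 and 7 without SMC1. The highest, 23 kb from the start beyond the 3′ end, had fold enrichments of 9.33 and 7.18 in NonSMC1 and NonSMC2, and the SMC-only region in an intron had 3.8 and 5 in SMC1 and SMC2. The local background at peaks of this window was raised, to medians between 1.51 and 3.16 times the lowest of the library, and its part in these values was not tested.

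*Tgfa*, which encodes TGF-alpha (chr6:86195223-86275719, forward strand), did not separate the types by number. Its window held 20 and 25 peaks in SMC1 and SMC2, and 18 and 23 in NonSMC1 and NonSMC2. A peak covered the start site in every line, at percentiles 82.8, 61.3, 15.5 and 88.5 in the order above. The lowest and the highest of these ranks were both in non-SMC lists. Of its type-specific regions 4 were SMC-only and 3 were non-SMC-only, an order that was not stable: it was 0 and 3 among peaks whose -log10 q was 5 or more, 4 and 16 without NonSMC1, and 5 and 11 without NonSMC2. An intronic SMC-only region 27.3 kb from the start (chr6:86222450-86222701) had 5.42 and 5.46 in SMC1 and SMC2, and a non-SMC-only region 14.5 kb upstream (chr6:86180677-86180932) had 6.33 and 6.1 in NonSMC1 and NonSMC2. A region beyond the 3′ end (chr6:86318626-86319341) was picked after its values were seen: it reached 18.3 (percentile 99.6) and 13.8 (percentile 99.1) in NonSMC1 and NonSMC2, and 2.3 (percentile 3.94) in SMC2. It therefore counts as mixed and not as non-SMC-only.

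*Egf*, which encodes the founding ligand of the family (chr3:129677565-129755316, reverse strand), had more SMC-only than non-SMC-only regions when both lines of each type were used. It had 1 non-SMC-only and 4 SMC-only regions, the latter at a density of 2.25 SMC-only regions per 100 kb, above that of 92.9% of all genes. The order turned without NonSMC1, to 16 non-SMC-only and 5 SMC-only regions, and without NonSMC2, to 9 and 4, and at a -log10 q of 5 or more both were 0. The peak at its start was found in the SMC lists, with a fold enrichment of 7.61 in SMC2 (percentile 94.1) and 3.22 in SMC1 (percentile 39.6). Neither non-SMC list had a peak there, but NonSMC2 had a weak one 951 bp upstream, with a fold enrichment of 2.44 and a pileup of 3. The promoter of *Egf* is for that reason outside the SMC-only promoters, which numbered 0 of 8 among the ligands and 3.08% of all promoters. With a window of 1 kb in place of 6 kb, or with the libraries scaled to the shallowest, it was SMC-only. Within the gene, 298 bp upstream of the start of a shorter transcript, a region was open in all 4 lines (chr3:129724950-129725886), with fold enrichments of 8.34, 10.2, 13.6 and 10.2 in the order SMC1, SMC2, NonSMC1, NonSMC2. A second SMC-only region lay beyond the 3′ end, 95.5 kb from the start, with 4.57 and 7.05 in SMC1 and SMC2.

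*Nrg1*, which encodes neuregulin 1, is the longest of the genes (chr8:31814551-32884029, reverse strand, 1069 kb) and is transcribed from several alternative first exons. It held open regions of both types, in different places. Its window had 30 and 53 peaks in SMC1 and SMC2, and 56 and 41 in NonSMC1 and NonSMC2, so the numbers overlapped, with 16 non-SMC-only and 9 SMC-only regions. Here too the order turned without SMC1, to 17 and 44, and without SMC2, to 17 and 24. By density, 1.37 non-SMC-only and 0.77 SMC-only regions per 100 kb, it lay above 58.8% and 56.9% of all genes.

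Along the gene the patterns parted at a region open in all 4 lines, 591 kb from the start (chr8:32293087-32293558). This boundary was picked after the positions were seen. All 9 SMC-only regions lay 5′ of it, between -0.548 and 585 kb from the start, whereas 12 of the 16 non-SMC-only regions lay 3′ of it. The other 4 lay at -24.9, 39.3, 492 and 549 kb. Every region counted, single-library ones included, SMC1 and SMC2 had 22 and 35 regions 5′ of the boundary and 7 and 15 regions 3′ of it. NonSMC1 and NonSMC2 had 15 and 13 regions 5′ of it and 40 and 27 regions 3′ of it. Both SMC lines thus had more regions on the 5′ side and both non-SMC lines on the 3′ side. Regions of 1 library alone did the same: SMC1 had 11 of them 5′ and 4 of them 3′ of the boundary, SMC2 23 and 11, NonSMC1 9 and 23, and NonSMC2 7 and 12.

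**Figure D4:**
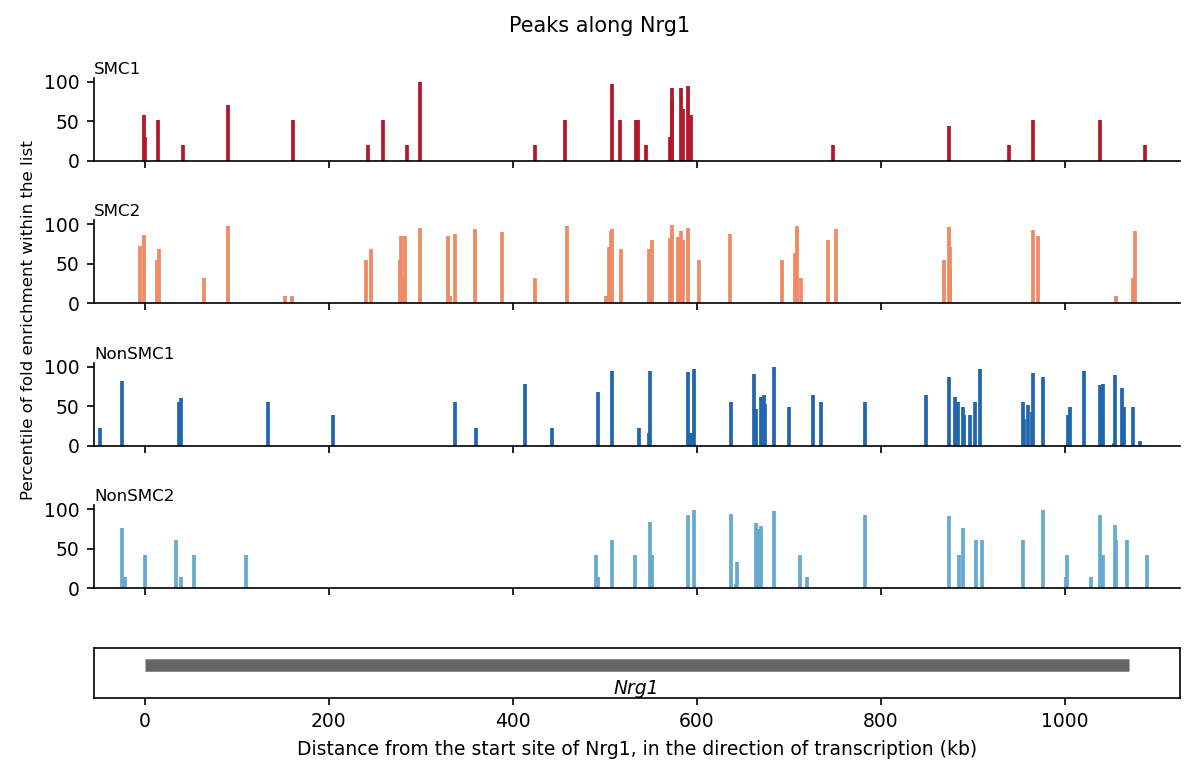
Peaks of each library along *Nrg1*, by the distance of the summit from the start site (kb, in the direction of transcription) and the percentile of the fold enrichment within its own list (height). Non-SMC lines have more regions 3′ of the shared region at 591 kb (40 and 27) than 5′ of it (15 and 13), and SMC lines fewer (7 and 15 against 22 and 35).

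A non-SMC-only region of *Nrg1* at 684 kb from the start (chr8:32199832-32200564) had a fold enrichment of 17.7 in NonSMC1 (percentile 99.5) and 11.8 in NonSMC2 (percentile 97.9). On the other side of the boundary, 4 SMC-only regions lay between chr8:32298745 and chr8:32313700, and the highest of them, at 574 kb (chr8:32310123-32310691), had 6.97 in SMC1 (percentile 91.5) and 12.4 in SMC2 (percentile 99). The SMC-only region at 299 kb (chr8:32585097-32585314) had 12.4 and 7.88. All of these lay in introns. Near the start site, an SMC-only region upstream of it had 3.52 in SMC1 and 5.17 in SMC2, while a weaker one over an exon was also found in NonSMC2.

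Over the ligand genes, as over the genome, regions specific to a type lay mostly away from start sites. Of the 36 non-SMC-only regions, 19 were intronic, 2 exonic, 14 intergenic and 1 inside a neighbouring gene. Within 3 kb of the start of a ligand gene lay 3 of them, or 4 with the starts of all its transcripts counted. Of the 18 SMC-only regions, 14 were intronic, and 4 lay within 3 kb of a start. In the genome, 24237 of 26224 non-SMC-only and 14127 of 15618 SMC-only regions lay more than 3 kb from every start site. A -log10 q of at least 5 in both lines was reached by 16 of the 36 non-SMC-only and by 3 of the 18 SMC-only regions. This value moves with the library, since 14.3% of all peaks reached it in SMC1, 17.1% in SMC2, 38% in NonSMC1 and 19.5% in NonSMC2. Depth could limit part of the patterns. The pileups of 24 of the 36 non-SMC-only regions, scaled to the background level of each SMC library, would have entered both SMC lists, and those of all 36 would have entered that of SMC2. For the SMC-only regions this held for 14 of 18 in both non-SMC lists.

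The AP-1 string was frequent in the non-SMC-only regions of the ligand genes and absent from the SMC-only ones. It lay within 100 bp of the summit in 17 of 36 non-SMC-only regions (47.2%, 95% Wilson interval 32% to 63%), beside 46.8% of all non-SMC-only regions of the genome. In the SMC-only regions it was found in 0 of 18 (interval 0% to 17.6%), beside 4.19% of those of the genome, and in 1 of the 11 regions open in all 4 lines. The ligand genes thus shared the AP-1 content of non-SMC-only chromatin in general. In all 357570 regions the string was found in 11.3%.

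The TEAD string was found in 12 of the 36 non-SMC-only regions (33.3%, interval 20.2% to 49.7%), beside 19.3% of those of the genome, and in 0 of the 18 SMC-only regions, beside 9.48%. By gene, it was in 7 of the 16 non-SMC-only regions of *Nrg1*, in 1 of the 10 of the *Epgn*, *Ereg* and *Areg* span, and in 4 of the other 10. The SOX strings had the opposite distribution. They were found in 12 of the 18 SMC-only regions (66.7%, interval 43.7% to 83.7%), beside 40.5% of those of the genome, and in 7 of the 36 non-SMC-only regions (19.4%), beside 27.5%. RUNX was in 6 of the 36 (16.7%) and 2 of the 18 (11.1%), beside 31.6% and 15.9% of those of the genome. The E-box was in 3 of the 36 (8.33%) and 4 of the 18 (22.2%), beside 14.1% and 21.1%. In all regions of the genome TEAD, SOX, RUNX and E-box strings were found in 12.6%, 26.7%, 20.4% and 13.7%. These are counts of letters within a window, and no share was tested against the genome.

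**Figure D5:**
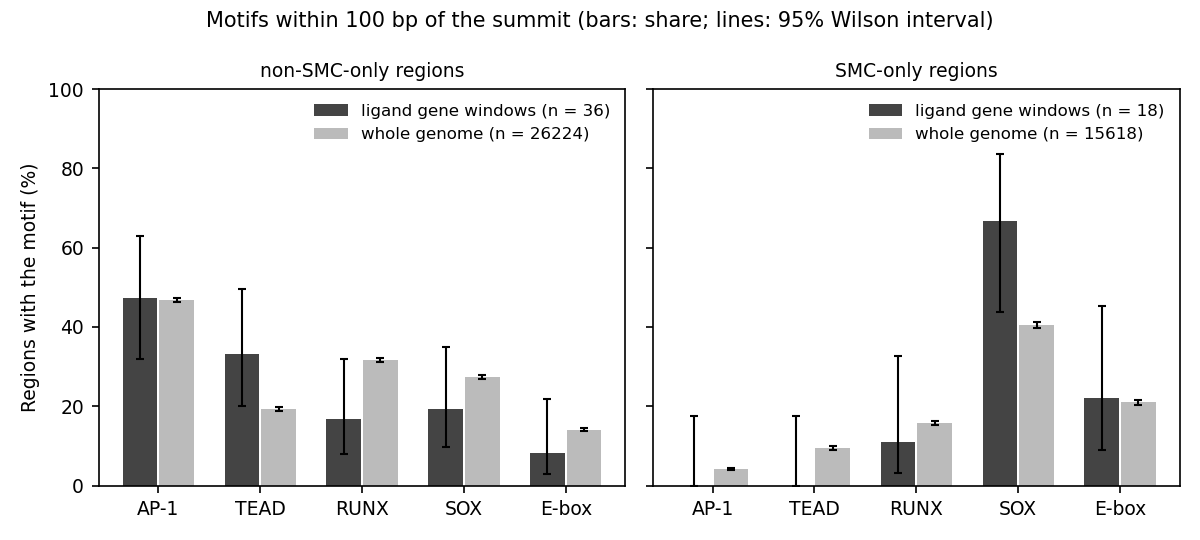
Share of regions (%, vertical axis) with each string within 100 bp of the summit, in the windows of the ligand genes (dark) and in the whole genome (light), for non-SMC-only regions (left) and SMC-only regions (right). Lines are 95% Wilson intervals, which cover counting error only. AP-1 is at 47.2% on the left and at 0% on the right, and SOX at 19.4% and 66.7%.

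Of the 24 further genes of the pathway, the receptor genes *Egfr* and *Erbb4* held type-specific regions mostly of opposite types, in windows of unlike length. *Egfr*, the receptor of most of these ligands, had 12 non-SMC-only and 1 SMC-only regions in its window of 266 kb. *Erbb4*, a receptor of NRG1, had 0 and 6 in 1176 kb. *Erbb2*, which pairs with the other receptors, had 1 and 1, and *Erbb3* had 0 and 1. Another neuregulin gene, *Nrg3*, had 0 and 8 in 1204 kb. The median of all protein-coding genes was 0.544 SMC-only regions per 100 kb, so 6 and 8 in windows this long lie near the usual density. The promoter of *Nrg3* had peaks in SMC1 and SMC2 but in no non-SMC line. Promoters were otherwise shared: 19 of the 24 were open in all 4 lines, 3 were SMC-only (*Erbb4*, *Nrg3* and *Rhbdf2*, which encodes a cofactor of the protease ADAM17) and 0 were non-SMC-only. Of all promoters, 48.7%, 3.08% and 2.45% had these patterns. At a -log10 q of at least 5, those of *Egfr*, *Erbb2* and *Etv4*, a target of ERK signaling, were non-SMC-only, as 5.3% of all promoters were. In their windows 16 of the 24 had more non-SMC-only than SMC-only regions, beside the 48.1% of all genes given above, 4 had fewer and 4 had equal numbers. The feedback inhibitor *Lrig1* had 13 non-SMC-only and 0 SMC-only regions, and *Adam17*, which encodes a protease that releases several of these ligands, had 0 and 0.

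The counts rested on having both lines of each type. With a line left out, a region of the remaining line alone suffices for the pattern of its type. Of the 340 regions, 35 were in SMC1 alone, 80 in SMC2, 64 in NonSMC1 and 74 in NonSMC2. Of the 357570 regions of the genome, these were 46941, 101583, 55923 and 70409. The counts that follow have no genome share beside them, so they are not read as particular to the ligand genes. With NonSMC1 or NonSMC2 left out, 112 and 101 regions met the non-SMC-only and 20 and 20 the SMC-only pattern. With SMC1 or SMC2 left out, 100 and 54 met the SMC-only and 40 and 43 the non-SMC-only pattern, so the surplus of non-SMC-only regions did not hold there. The non-SMC-only promoter of *Ereg* was found in each of these 4 cases, and without SMC2 the promoter of *Areg* joined it.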

How the data were processed

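ATAC-seq had been performed on 1 library from each of 2 SMC and 2 non-SMC lines, which GEO's labels number 1 and 2. The authors mapped reads to mm10 with Bowtie2 v2.3.4, removed duplicates and called peaks with MACS2 v2.1.1 in each library; the settings of the peak calling are not given in the sources used here. The authors deposited, for each peak, a fold enrichment, which is a ratio of pileup to local background. They also deposited each p-value and q-value as its -log10, and a score, which was not used. Lists held 91118, 154039, 115909 and 128788 peaks in SMC1 and SMC2 and NonSMC1 and NonSMC2, and their lowest -log10 p was 2. Since depth enters all of these values, peaks were ranked inside a list, and lists were compared mainly by position. Numbers of peaks and a cutoff on q were also compared between lists, and these still carry depth. Scaled pileups were used where the text says so.

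Peaks of the autosomes (1 to 19) and of X and Y were joined into regions by an overlap of 1 base and set against GENCODE M21, with gene 5′ ends as start sites. Pileup and background were recovered from fold enrichment and p for all peaks, by the formulas of MACS2, and this step was tested on simulated data. Background level means the lowest background of a library. Motif strings were searched, for either strand, up to 100 bp from the highest summit of a region. No test was made between the types, nor for any list. The genes, lists and motifs were chosen with earlier results of these data known. For each ligand gene the text names promoter peaks, the 2 highest non-SMC-only and SMC-only regions and the highest region of all 4 lines, by mean percentile, and further regions where it says so or where they complete a count; 1 marker gene and 1 region that these rules name are not reported here. As alternatives, peaks were limited to a -log10 q of 5 or more, to equal list lengths or to scaled depth, a reciprocal overlap of 50% and other flanks and windows were used, *Nrg1* or a library was left out, and line pairs were taken as a replicate block. Python 3.11.15, numpy 2.4.6, pandas 2.3.3, scipy 1.17.1, pysam 0.24.0, samtools 1.23.1 and matplotlib 3.10.9 were used, with bedtools 2.31.1 in the checks.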

Additional observations from a re-analysis of the deposited data

Results flagged for a closer look

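The numbers of peaks in the window of *Nrg1* went opposite ways in lines numbered 1 and in lines numbered 2. The log2 ratio of SMC over non-SMC was -0.90 between the lines numbered 1, which had 30 and 56 peaks, and 0.37 between the lines numbered 2, which had 53 and 41. The pairs thus differed by 1.27 on the log2 scale, a difference that was not tested. The background level, relative to SMC1, was 3.26 in NonSMC1, 3.37 in SMC2 and 1.4 in NonSMC2, so that of lines with the same number the one with the higher background level had more peaks. The part of depth in this difference was not tested.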

How the results depend on the processing

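The 36 non-SMC-only and 18 SMC-only regions became 20 and 3 when a -log10 q of 5 or more was required, and 20 and 9 without *Nrg1*, and the first became 21 in gene bodies without flanks. With 1 library left out, the non-SMC-only count ranged from 40 to 112 and the SMC-only count from 20 to 100. The order of these counts turned without SMC1 (40 and 100) and without SMC2 (43 and 54). No genome share was set beside these counts, nor beside the 20 and 3. The log2 ratio of peaks was -0.84 when SMC2 was left out and -0.08 when SMC1 was, the extremes, and stayed below 0. The number of non-SMC-only promoters ranged from 1 to 2. The replicate block, the mean of the ratios within line pairs, gave -0.46 in place of -0.41. The series calls SMC and non-SMC paired, but the labels do not say that a number marks 1 animal. The Jaccard index between the types was 0.0934 and 0.096 for lines with the same number and 0.0818 and 0.11 for lines with different numbers. The share with AP-1 lay between 33.3% and 55.6% under the alternatives run for it. Of the values that all these results took under the alternatives, 42 stayed within 1.5 times the count or within the error of the value, and 11 moved further. For single genes, the number of non-SMC-only regions stayed within these bounds in 58 cases and moved in 38. The cause of these changes was not tested, except that fewer genes, bases, peaks or libraries entered by construction. Shallow lists limit what could be found, above all that of SMC1.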
